A study of Mus musculus with 2 samples.

Results

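Accessible chromatin was described at 10 genes of fibroblast growth factor (FGF) signalling in mouse lung, chosen by symbol out of the 21938 protein-coding genes of the GENCODE annotation. They were 4 receptors (Fgfr1, Fgfr2, Fgfr3 and Fgfr4), the ligands Fgf10 and Fgf7, the ETS transcription factors Etv4 and Etv5, and the feedback inhibitors Spry2 and Dusp6. DNase-seq, in which DNase I cuts open DNA in nuclei and the cut ends are sequenced, was done on lungs of male B6CASTF1/J mice, hybrids of C57BL/6J and CAST/EiJ, aged 14 days. There were 2 libraries in 1 group, with no treatment named. The material of replicate 2 was pooled from 3 males, while the label of replicate 1 says male and names no pool. The donor entry is identical for both, the animals behind each are not stated, and the spread between libraries may be technical. With 1 group there was no contrast and no test. The whole organ was assayed, so fewer cells of a type and less open chromatin per cell cannot be told apart.

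FGF ligands bind receptor tyrosine kinases together with heparan sulphate, and the receptors signal through adaptors and the RAS-ERK kinases to the nucleus. In the lung, Fgf10 and Fgf7 are made by mesenchyme and act mainly on the epithelial form of Fgfr2, and mouse embryos without Fgf10 do not form lungs. ERK signalling raises transcription of Etv4 and Etv5 and of the inhibitors Spry2 and Dusp6, which limit the signal in turn.

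A peak is an accessible site called by the authors in a library, and its percentile is the rank of its score among all peaks of the same library. A footprint is a short stretch that was protected from cutting. Replicate 1 held 94786 peaks and 326313 footprints, and replicate 2 held 77403 peaks and 252174 footprints. Read depth is unknown. Every peak score was a whole multiple of a step, within 0.05 of a step, and the step was 0.00707 in replicate 1 and 0.0110 in replicate 2, so scores were ranked within a library and not compared between libraries. Over all peaks, 73.6% of replicate 1 overlapped a peak of replicate 2, and 89.8% of replicate 2 overlapped a peak of replicate 1. Marker genes were counted beside the label, but they were chosen with earlier results of these data known and are no independent check of the tissue. In all, 8 of 9 epithelial, 5 of 5 endothelial and 5 of 6 mesenchymal markers had a promoter peak in both libraries. So did 1 of 4 blood markers, 0 of 5 markers of other tissues and 63.6% of all protein-coding genes. The epithelial marker without a peak was Scgb1a1, of club cells, and the smooth muscle gene Acta2 had a peak in replicate 1 alone.

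The sequences of the main promoter sites of Fgfr2, Fgf7, Etv4, Etv5, Spry2 and Dusp6 are shown first. Each held protected stretches that recurred in both libraries. The Fgf7 site is not a strong one, and the main promoter sites of Fgfr1, Fgfr3 and Fgfr4, which ranked above it, are not printed. Letters are from the GRCm38 (mm10) C57BL/6J genome as held by RefSeq, so CAST/EiJ alleles are not shown. Each runs 5′ to 3′ on the strand of its gene, with annotated untranslated bases trimmed. Capitals mark bases that lay in a footprint of both libraries.
Fgfr2 promoter, chr7:130266264-130266420, minus strand: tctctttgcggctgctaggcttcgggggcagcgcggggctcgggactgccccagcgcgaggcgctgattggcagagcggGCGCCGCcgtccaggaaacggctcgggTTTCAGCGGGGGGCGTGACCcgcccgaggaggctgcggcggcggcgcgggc
Fgf7 promoter, chr2:126034433-126034620, plus strand: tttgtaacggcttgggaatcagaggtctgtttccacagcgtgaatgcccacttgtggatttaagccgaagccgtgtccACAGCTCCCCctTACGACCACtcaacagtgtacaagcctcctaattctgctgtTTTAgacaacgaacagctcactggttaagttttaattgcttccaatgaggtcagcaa
Etv4 promoter, chr11:101785372-101785460, minus strand: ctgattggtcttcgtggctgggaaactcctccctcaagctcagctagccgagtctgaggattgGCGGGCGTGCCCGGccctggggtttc
Etv5 promoter, chr16:22439720-22439900, minus strand: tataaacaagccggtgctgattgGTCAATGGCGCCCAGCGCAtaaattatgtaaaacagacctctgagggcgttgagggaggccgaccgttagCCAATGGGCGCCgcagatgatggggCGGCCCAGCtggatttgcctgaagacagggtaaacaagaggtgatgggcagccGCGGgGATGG
Spry2 promoter, chr14:105897281-105897520, minus strand: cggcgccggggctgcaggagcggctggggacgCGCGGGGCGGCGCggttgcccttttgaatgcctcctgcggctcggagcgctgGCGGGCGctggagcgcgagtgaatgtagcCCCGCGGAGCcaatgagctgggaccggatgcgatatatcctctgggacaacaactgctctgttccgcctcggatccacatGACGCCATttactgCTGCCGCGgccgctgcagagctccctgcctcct
Dusp6 promoter, chr10:99262981-99263230, plus strand: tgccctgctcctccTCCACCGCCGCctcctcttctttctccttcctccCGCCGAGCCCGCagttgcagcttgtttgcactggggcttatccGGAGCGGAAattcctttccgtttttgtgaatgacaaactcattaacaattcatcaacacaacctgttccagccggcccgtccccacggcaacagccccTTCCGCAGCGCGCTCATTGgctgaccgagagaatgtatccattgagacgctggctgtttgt
The CCAAT box, searched as CCAAT on both strands, lay whole in a footprint of both libraries at 2 places in the Etv5 site, of which the stretch above shows the copy at chr16:22439803-22439807. At Dusp6 the copy at chr10:99263185-99263189 lay whole in a footprint of replicate 2 and in part in replicate 1, and at Etv4 the copy at chr11:101785397-101785401 did the same. The copies in the Fgfr2 and Fgf7 sites above were in no footprint of either library.

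The strongest sites away from promoters are shown next for 4 genes, since they were the most accessible candidates near these genes that were not the start of a neighbour.
Fgfr2, 7.18 kb upstream, chr7:130273291-130273590, minus strand: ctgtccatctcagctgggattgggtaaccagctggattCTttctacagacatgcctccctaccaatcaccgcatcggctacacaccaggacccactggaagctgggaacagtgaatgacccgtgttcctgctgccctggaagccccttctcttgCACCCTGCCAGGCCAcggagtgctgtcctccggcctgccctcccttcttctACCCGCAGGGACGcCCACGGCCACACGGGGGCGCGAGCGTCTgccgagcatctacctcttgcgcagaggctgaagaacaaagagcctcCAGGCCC
Fgfr4, 37.7 kb downstream of the 5′ end, chr13:55190241-55190480, plus strand: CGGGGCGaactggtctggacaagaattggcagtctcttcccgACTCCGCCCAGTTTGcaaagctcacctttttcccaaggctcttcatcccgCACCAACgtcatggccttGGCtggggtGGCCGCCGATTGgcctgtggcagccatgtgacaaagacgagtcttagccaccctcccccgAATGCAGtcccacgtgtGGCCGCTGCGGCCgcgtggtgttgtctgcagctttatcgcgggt
Etv5, intron 10.6 kb into the gene, chr16:22428941-22429220, minus strand: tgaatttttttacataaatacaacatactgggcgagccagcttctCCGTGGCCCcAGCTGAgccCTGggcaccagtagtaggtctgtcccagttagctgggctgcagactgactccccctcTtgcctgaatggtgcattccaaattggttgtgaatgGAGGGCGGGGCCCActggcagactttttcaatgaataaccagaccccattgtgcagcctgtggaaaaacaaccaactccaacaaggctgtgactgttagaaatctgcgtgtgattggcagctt
Spry2, 2.19 kb upstream, chr14:105898901-105899120, minus strand: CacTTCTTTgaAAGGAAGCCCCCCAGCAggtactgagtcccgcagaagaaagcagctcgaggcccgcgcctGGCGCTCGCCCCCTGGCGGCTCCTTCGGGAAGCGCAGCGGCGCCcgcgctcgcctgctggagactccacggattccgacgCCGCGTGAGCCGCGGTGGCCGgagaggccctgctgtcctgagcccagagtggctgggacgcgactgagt
Of these the Spry2 stretch had the most bases in footprints of both libraries, 89 of 220. The Fgfr4 stretch had 64 of 240, the Fgfr2 stretch 65 of 300 and the Etv5 stretch 33 of 280.

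A promoter peak, meaning a peak within 1 kb of any transcript 5′ end, was present for 10 of the 10 genes in replicate 1 and 9 of 10 in replicate 2. Of all protein-coding genes, 66.6% had one in replicate 1, 64.1% in replicate 2 and 63.6% in both. The gene without a promoter peak in replicate 2 was Fgf10. Genes with more 5′ ends offer more places for such a peak, from 1 end at Spry2 to 18 at Fgfr1, and the shares were not matched for this. With outermost 5′ ends alone the counts were 9 in replicate 1 and 8 in replicate 2, and the share of all genes was not counted that way. By score the 10 genes did not rank above other promoters as a group. The median percentile of their highest promoter peak was 85.0 in replicate 1 and 86.9 in replicate 2 (n = 9 there), against 89.9 and 89.7 over all protein-coding genes with a promoter peak. Etv5 and Dusp6 stood above that median in both libraries, Spry2 above it in replicate 2 and below it in replicate 1, and the other 7 genes stood below it wherever they had a peak.

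**Figure D1:**
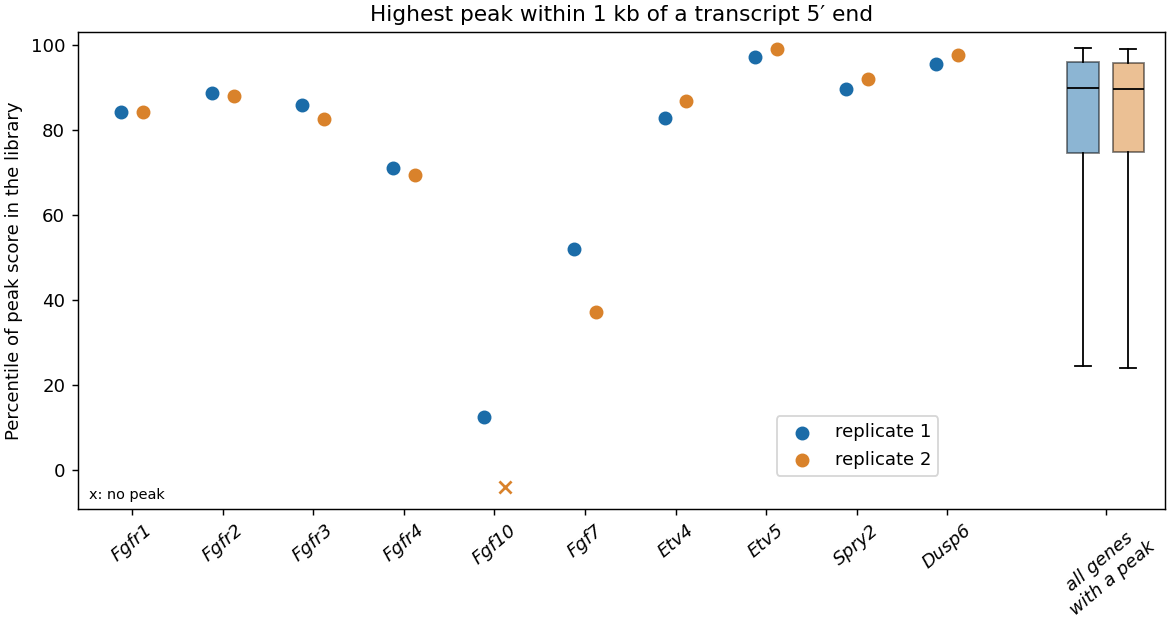
Percentile of the highest peak within 1 kb of a transcript 5′ end for each gene in each library (points, replicates offset sideways; a cross marks no peak), with boxes for all protein-coding genes that have such a peak (line, median; box, quartiles; whiskers, 5th to 95th percentile). Etv5 reached 97.1 and 99.0, while Fgf10 had 12.5 in replicate 1 and no peak in replicate 2.

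Among the receptors, Fgfr1 (chr8:25513654-25575718, plus strand) had its main promoter peak at an inner transcript start and not at the outermost 5′ end. The peak lay 5.1 kb into the gene, at chr8:25518661-25518860 in replicate 1 (percentile 84.1, 5 footprints) and chr8:25518641-25518840 in replicate 2 (84.3, 1 footprint). Near the outermost 5′ end replicate 1 had a peak at percentile 10.1 and replicate 2 had none. The ratio of observed to expected CpG in the 1001 bases around the outermost end was 0.280, against 0.886 around the transcript start at position 25518895, and a median of 0.552 around the outermost ends of all protein-coding genes. That start was picked because it had the highest ratio of the 18 5′ ends of Fgfr1. The main peak ended short of it in both libraries. Ratios of the other inner ends are not given, so a link of CpG content to accessibility was not tested.

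Fgfr2, the receptor of Fgf10 and Fgf7, is on the minus strand at chr7:130162451-130266263 without its read-through transcript. Its promoter peak covered the 5′ end at percentile 88.8 in replicate 1 and 88.1 in replicate 2, with 4 footprints in each. Weaker peaks stood 1.1 kb into the gene, at 77.2 in replicate 1 and 70.7 in replicate 2, and near an inner transcript start 89.0 kb into the gene, at 18.0 and 21.9. All 3 places were peaks in both libraries.

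Fgfr3 (chr5:33721674-33737068, plus strand) had a peak over its 5′ end at percentile 85.9 in replicate 1 and 82.6 in replicate 2, with 3 footprints in each. Another 3 peaks near inner starts, at percentiles of 29.7 to 56.4, were called in replicate 1 and in no case in replicate 2. Fgfr4 (chr13:55152640-55168759, plus strand) had the weakest promoter of the receptors. Its peak at the 5′ end ranked 61.7 in replicate 1 and 51.3 in replicate 2, and a peak 2.3 kb inside ranked 71.0 and 69.5. The order of the receptors by percentile was Fgfr2, Fgfr3, Fgfr1, Fgfr4 in replicate 1 and Fgfr2, Fgfr1, Fgfr3, Fgfr4 in replicate 2, so Fgfr1 and Fgfr3 did not differ beyond the spread between libraries. Across all 10 genes Etv5, Dusp6 and Spry2 led in that order in both libraries, followed by Fgfr2.

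Of the ligands, Fgf10 (chr13:118669791-118792115, plus strand) had the lowest promoter percentile of the 10 genes. Its 3 promoter peaks in replicate 1 all lay at the inner 5′ end at position 118714699, with percentiles of 9.11, 12.5 and 11.5. No peak or base passing the false discovery rate stood within 1 kb of its 2 outer 5′ ends in either library. Around the inner end 1278 bases passed a rate of 0.05 in replicate 1 and 778 in replicate 2, but at the stricter rate of 0.001 there were 725 in replicate 1 and 0 in replicate 2. Cutting above background was therefore listed there in both libraries, and the peak list of replicate 2 did not reach it. The inner end of Fgf10 also lies within 1 kb of a 5′ end of the antisense gene Gm16263, so the peaks there cannot be told apart by transcript.

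Fgf7 (chr2:126034658-126091185, plus strand), a ligand of the same receptor form that lies inside an intron of Fam227b, had a modest promoter peak. Its percentile was 52.1 in replicate 1, with 2 footprints, and 37.1 in replicate 2, with 3 footprints. The CpG ratio was 0.379 around its outermost 5′ end and 0.345 around that of Fgf10. Both outermost ends were thus below the median ratio of all genes given above. Around the inner end of Fgf10, where its promoter peaks lay, the ratio was 0.532, close to that median of 0.552.

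Of the nuclear effectors, Etv5 (chr16:22381309-22439719, minus strand) had the strongest promoter of the 10 genes. The peak over its 5′ end scored 11.8 in replicate 1, percentile 97.1, and 18.2 in replicate 2, percentile 99.0. It held 8 footprints in replicate 1 and 6 in replicate 2, against a median of 4 in each library for all peaks above percentile 80. The peak was also wider, at 280 bp in each library, against medians of 180 and 200 bp for those peaks. The part of width in the count was not tested. A flanking site 1.18 kb into the gene ranked 64.5 in replicate 1 and 52.4 in replicate 2. Etv4 (chr11:101769742-101785371, minus strand), its close relative, ranked 82.9 in replicate 1, with 3 footprints, and 86.9 in replicate 2, with 2 footprints. At the Etv4 promoter an SP/KLF word (GGGGCGGGG, searched on both strands) lay whole in a footprint of both libraries, at chr11:101785324-101785332.

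Of the feedback inhibitors, Dusp6 (chr10:99263231-99267489, plus strand), a phosphatase that removes phosphate from ERK, scored 9.86 in replicate 1, percentile 95.5, and 14.6 in replicate 2, percentile 97.7. The peak held 5 footprints in replicate 1 and 7 in replicate 2. Replicate 1 listed 6 further peaks within 1 kb of its 5′ ends, at percentiles of 23.0 to 56.0, and replicate 2 listed none of them. Spry2 (chr14:105891947-105896819, minus strand), which restrains RAS-ERK signalling from receptor tyrosine kinases, had its main peak upstream of the 5′ end and not over it. That peak, centred 581 bp upstream in replicate 1 and 571 bp in replicate 2, ranked 89.5 with 6 footprints and 91.9 with 5 footprints. The other promoter peaks of Spry2 were weaker. In replicate 1 a peak over the 5′ end ranked 47.9 and a peak 619 bp into the gene ranked 57.8, and in replicate 2 the pair of peaks 199 bp into the gene ranked 25.3 and 18.5.

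The false discovery rate of the cut rate gave a measure of breadth taken without the peak list. Over all protein-coding genes the median was 763 bases within 1 kb of 5′ ends at a rate of 0.05 or below in replicate 1, and 628 in replicate 2. Spry2, with a single 5′ end, had 1909 bases in replicate 1 and 1877 in replicate 2 of the 2001 in its window. At 0.001 it still had 1865 and 1843, nearly the whole window in both libraries. Etv5 had 1848 and 1669 bases, and Etv4 had 1527 and 1612.

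The libraries differed most at Dusp6, with 3353 bases in replicate 1 and 792 in replicate 2. Fgfr1 had 1510 and 816, Fgfr2 had 1947 and 843, and Fgfr3 had 1365 and 839. Fgfr4 had 696 in replicate 1 and 864 in replicate 2, and Fgf7 had 340 and 401. Fgf10 had 1278 and 778, above the median of all genes in both libraries despite its low peak percentile. At 0.001 it had 725 and 0. Genes with more 5′ ends offer more bases, so these sums are not ranked between genes. The finer score step of replicate 1, by a ratio of 1.56, moves with its larger sums at Fgfr1, Fgfr2, Fgfr3, Fgf10 and Dusp6, and its part in them was not tested.

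**Figure D2:**
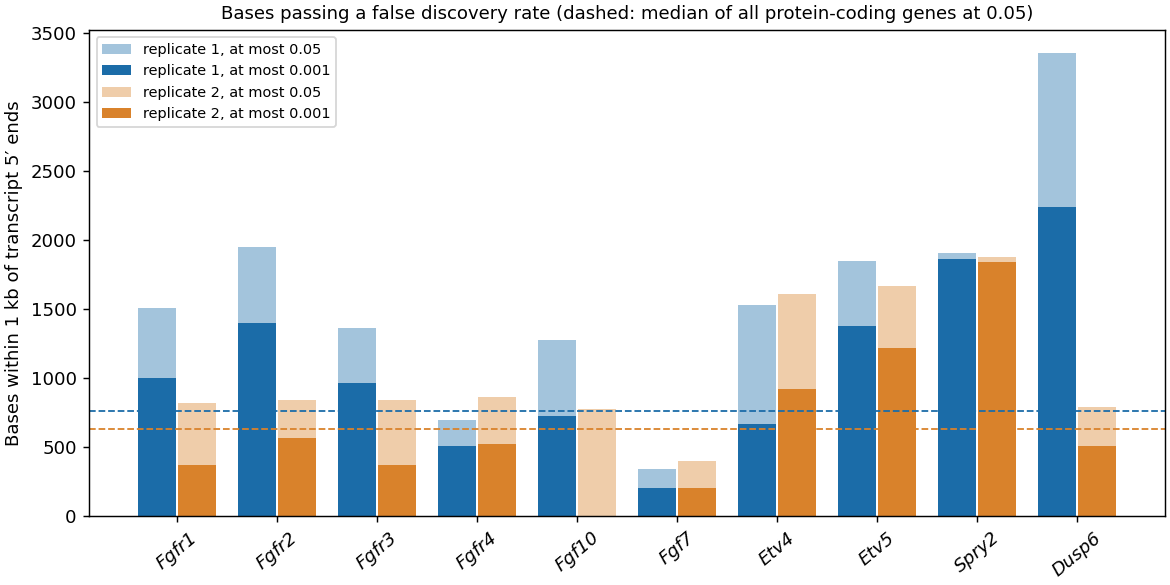
Bases within 1 kb of the transcript 5′ ends of each gene that passed a false discovery rate of 0.05 (pale bars) and 0.001 (dark bars) in each library, with the median of all protein-coding genes at 0.05 as dashed lines (763 and 628). Spry2 had nearly equal bars in both libraries, while Dusp6 had 3353 bases in replicate 1 and 792 in replicate 2.

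Away from their promoters, over the gene bodies and 50 kb on each side, the 10 genes had 78 sites with a peak in both libraries. The median was 8.5 sites per gene, against 5 over all protein-coding genes, whose upper quartile was 9. Fgfr1 had 12, Fgfr2, Fgfr3, Fgfr4 and Dusp6 had 10 each, Etv5 and Spry2 had 7 each, Etv4 had 6, Fgf7 had 5 and Fgf10 had 1. Thus 8 of the 10 genes stood above the median of all genes, and both ligands did not. The area searched grows with gene length, from 4.26 kb at Dusp6 to 122 kb at Fgf10, and the counts were not matched for it. They include sites at the starts of other genes, and no median over all genes was counted without those. Of the 78 sites, 37 lay between genes, 26 in introns, 9 in untranslated regions, 5 in noncoding exons and 1 in a coding exon.

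The start of another gene accounted for 16 of the 78 sites, with 6 at Dusp6, 4 at Fgfr1, 4 at Fgfr4, 1 at Fgfr3 and 1 at Etv4. The remaining 62 sites comprised 19 inside the gene bodies and 43 in the flanks. Fgfr1 and Fgfr2 had 5 sites each inside the gene, Fgf7 and Etv5 had 3 each, and Fgfr3, Fgfr4 and Spry2 had 1 each. Fgf10, Etv4 and Dusp6 had none.

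**Figure D3:**
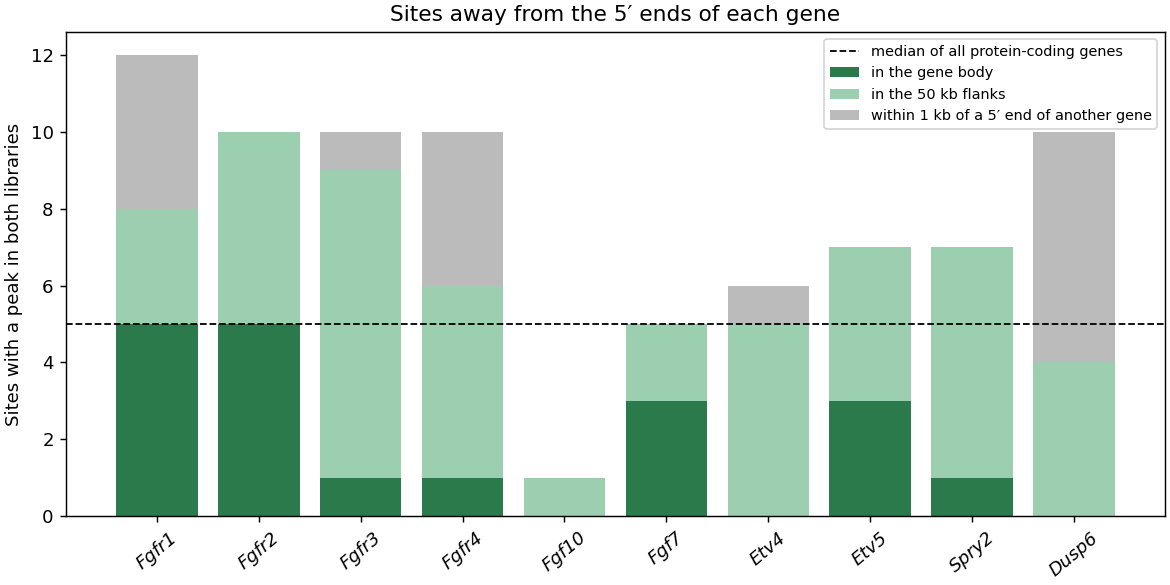
Number of sites with a peak in both libraries away from the gene's own 5′ ends, split into the gene body, the 50 kb flanks and sites within 1 kb of a 5′ end of another gene, with the median of all protein-coding genes (5) as a dashed line. Fgfr1 had 12 sites and Fgf10 had 1.

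Over all 94 shared sites, promoter sites included, the percentiles in the libraries gave Pearson r = 0.917 and Spearman rho = 0.932. This is a description across sites of 2 libraries of the same tissue. The median difference was 5.55 percentile points. The largest, 43.1, was at a weak Fgfr2 intron site 92.2 kb into the gene, with 57.4 in replicate 1 and 14.3 in replicate 2. Sites found in 1 library were weaker: the 38 of replicate 1 had a median percentile of 34.1 and the 15 of replicate 2 had 17.1, against 64.2 and 64.7 for the shared sites.

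**Figure D4:**
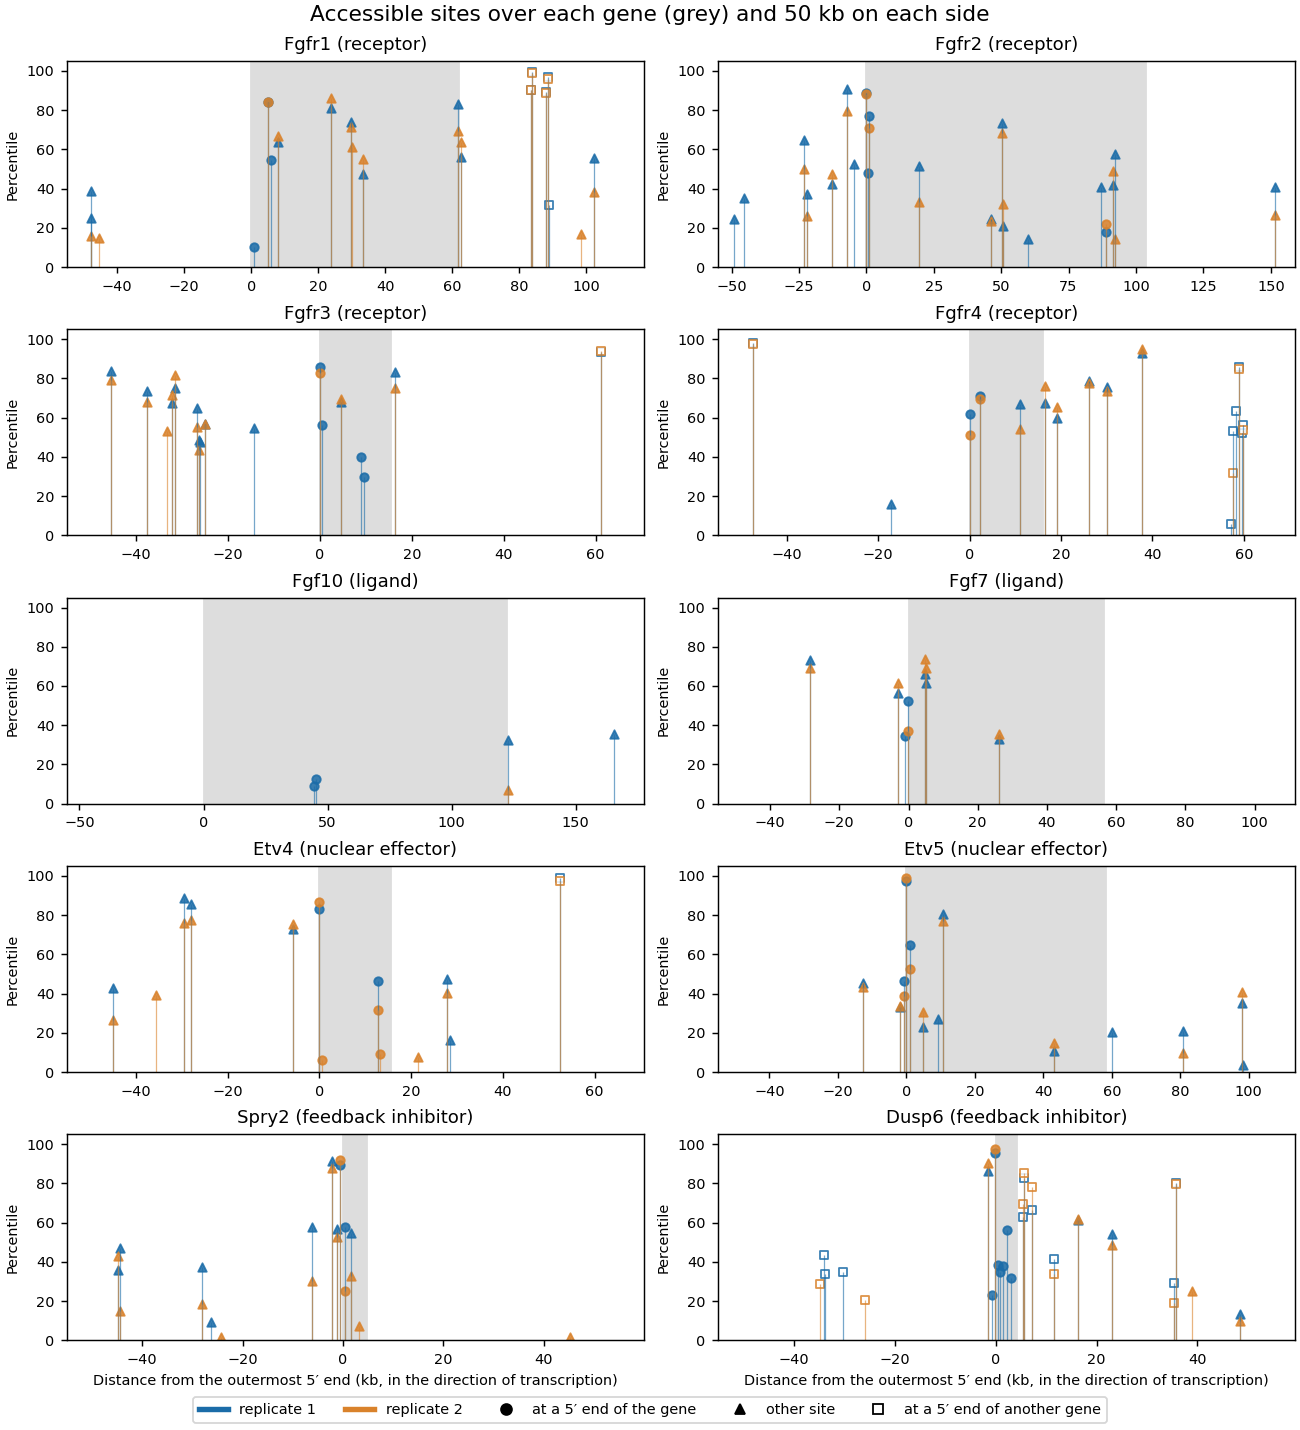
Percentile of every site in each library against its distance from the outermost 5′ end of the gene, in the direction of transcription, with the gene body in grey. Circles are sites at a 5′ end of the gene, triangles other sites and open squares sites at a 5′ end of another gene; the highest site of Fgf10 ranked 35.4, in replicate 1.

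Among the 62 shared sites away from the starts of all genes, the highest by mean percentile was at Fgfr4, at chr13:55190241-55190480, between genes 37.7 kb downstream of the Fgfr4 5′ end. It ranked 92.8 in replicate 1 and 94.8 in replicate 2, with 6 footprints in each, so it outranked the promoter of Fgfr4 itself in both libraries. It is 19.3 kb from a 5′ end of Nsd1 and cannot be assigned to either gene from position. A CACGTG E-box in it, shown above in lower case, lay whole in a footprint of replicate 2 and in none of replicate 1.

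At Fgfr2 the strongest such site stood 7.18 kb upstream, at chr7:130273261-130273620. It ranked 90.8 in replicate 1, with 5 footprints, and 79.6 in replicate 2, with 7 footprints. None of its 10 shared sites was within 1 kb of a 5′ end of another gene. An intron site 50.3 kb into Fgfr2 (chr7:130215841-130216000) ranked 73.3 and 68.4.

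At Fgfr1 the strongest sites in range belonged to the starts of neighbours, Letm2 at 99.4 in replicate 1 and 98.8 in replicate 2, and Nsd3 at 96.8 and 95.7. Inside Fgfr1, an intron site 23.7 kb into the gene (chr8:25537281-25537480) ranked 81.1 and 86.1. At Fgfr3, sites in an intron of Tacc3 (chr5:33676061-33676240) ranked 83.7 in replicate 1 and 79.1 in replicate 2. Just beyond the 3′ end of Fgfr3, chr5:33738001-33738200 ranked 83.4 and 75.2, and 31.6 kb upstream chr5:33689921-33690220 ranked 74.9 and 81.8 with 5 and 6 footprints. None of these outranked the Fgfr3 promoter peak in either library.

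None of the shared sites of the ligands was strong. Fgf7 had 5, equal to the median of all genes, and Fgf10 had 1. The Fgf10 site shared by both libraries lay at chr13:118792421-118792600, just past the 3′ end of the gene, and ranked 32.2 in replicate 1 and 7.24 in replicate 2. At Fgf7 an intron site 4.86 kb into the gene (chr2:126039421-126039620) ranked 65.9 and 73.8, and a Fam227b intron site 28.4 kb upstream ranked 73.0 and 69.1. Both Fgf7 sites outranked its promoter peak in both libraries.

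At Etv5 an intron site 10.6 kb into the gene (chr16:22428941-22429220) ranked 80.4 in replicate 1, with 5 footprints, and 76.7 in replicate 2, with 8 footprints. At Spry2 the upstream site 2.19 kb from the 5′ end ranked 91.6 and 88.0, so it outranked the Spry2 promoter peak in replicate 1 and not in replicate 2. At Dusp6 an upstream site 1.44 kb from the 5′ end (chr10:99261641-99261940) ranked 86.4 and 90.4. A site 5.7 kb downstream of the Dusp6 5′ end, in a noncoding exon of Gm34921, ranked 82.7 and 85.5. It lay 925 bp from a 5′ end of Gm48089 and is among the sites counted above at the start of another gene.

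Footprints were called in the peaks of the 10 genes at about the rate of all peaks. In replicate 1, 119 of 135 peaks held at least 1 footprint (88.1%), against 88.7% of all peaks. In replicate 2, 102 of 112 did (91.1%), against 87.1% of all peaks. Peaks away from the promoters held one in 95 of 102 cases in replicate 1 and 85 of 93 in replicate 2, while promoter peaks did in 24 of 33 and 17 of 19. Over all peaks the share rose with rank, from 73.2% at percentiles 0 to 20 to 99.9% at 80 to 100 in replicate 1. In replicate 2 it rose from 61.9% to 99.9%. No share over all promoter peaks was counted, so the split is not read as a trait of these genes.

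Consensus words of 21 transcription factor families were searched on both strands in the shared sites. All 4 matches of CTCF, the insulator protein, at Fgfr1, Etv4 and Spry2, lay whole in a footprint of both libraries. The same held for 1 CRE match, at the start of Letm2 near Fgfr1, and 1 NRF1 match, at the start of Zfp346 near Fgfr4. Over all 68824 sites of the genome shared by both libraries, 79.9% of CTCF matches, 65.3% of CRE matches and 63.9% of NRF1 matches did so. Of the CTCF matches, 3 are shown with 20 bases on each side, because the match lies within the capitals in each.
Etv4, 28.1 kb upstream, chr11:101813422-101813473, minus strand: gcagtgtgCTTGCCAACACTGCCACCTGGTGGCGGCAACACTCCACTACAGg
Etv4, 29.6 kb upstream, chr11:101814955-101815006, minus strand: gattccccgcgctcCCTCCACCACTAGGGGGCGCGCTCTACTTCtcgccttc
Spry2, 6.19 kb upstream, chr14:105902994-105903045, minus strand: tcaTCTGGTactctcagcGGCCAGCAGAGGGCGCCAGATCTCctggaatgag
The matches at Etv4 lay on opposite strands, in sites that ranked 85.8 and 88.5 in replicate 1 and 77.7 and 76.2 in replicate 2. The Spry2 site ranked 57.8 in replicate 1 and 30.4 in replicate 2, and the Fgfr1 match lay in its 3′ untranslated region, in a site that ranked 83.0 and 69.5. In windows of 201 bp around the centres of peaks more than 1 kb from protein-coding 5′ ends, CTCF matches stood in 4 of 87 peaks of these genes in replicate 1 (4.60%) and 4 of 82 in replicate 2 (4.88%), against 8.50% and 9.05% of all such peaks.

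SP/KLF matches lay whole in footprints of both libraries in 7 of 11 cases, among them 2 at the start of Zfp346 near Fgfr4 and 2 at the starts of Letm2 and Nsd3 near Fgfr1. Over all shared sites of the genome 50.7% of SP/KLF matches did. In windows more than 1 kb from protein-coding 5′ ends they stood in 4 of 87 peaks of the 10 genes in replicate 1 (4.60%) and 5 of 82 in replicate 2 (6.10%), against 1.92% and 1.91% of all such peaks. In promoter windows they stood in 2 of 33 (6.06%) and 2 of 19 (10.5%), against 13.8% and 14.8% of all promoter windows. Few matches of the further families found in these sites were protected, here and over the genome. NFI words had no match in these sites, while 60.3% of their matches over all shared sites lay whole in a footprint of both libraries. None of 7 FOX matches (TGTTTAC) and none of 5 AP-1 matches (TGANTCA) lay whole in a footprint of either library. Over all shared sites, 0.798% of FOX and 2.27% of AP-1 matches lay whole in a footprint of both. Of 24 TEAD matches (GGAATG), 1 lay whole in a footprint of replicate 1 and 1 in replicate 2, and none in both, against 4.42% in both over all shared sites.

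The single NKX2-1 match (TCAAGTG), at an upstream Fgfr2 site, was in no footprint, and 7.07% of such matches over all shared sites lay whole in a footprint of both libraries. Of 4 ETS matches (CCGGAAG), the family to which Etv4 and Etv5 belong, 1 lay whole in a footprint of both libraries, at the start of Dhx8 near Etv4, against 15.3% over all shared sites. ETS matches stood in 1 of 33 promoter windows of the 10 genes in replicate 1 (3.03%) and 0 of 19 in replicate 2, against 9.39% and 10.6% of all promoter windows. Of 36 CCAAT words in the shared sites, 2 lay whole in a footprint of both libraries, the pair at the Etv5 promoter, against 9.77% over all shared sites. The CCAAT word stood in 33.3% of the promoter windows of the 10 genes in replicate 1 and 42.1% in replicate 2, against 23.6% and 25.1% of all promoter windows. More than 1 kb from protein-coding 5′ ends it stood in 17.2% and 20.7% of the windows of these genes, against 22.2% and 22.3% of all such windows. These shares rest on few peaks. A match is a description of letters and not of a bound factor.

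A list of 71 further genes of the pathway, sorted by role, was placed beside the 10. A promoter peak was present in both libraries for 61 of them, and 9 had none in either. All 10 adaptors, all 9 members of the RAS-ERK cascade, all 10 further feedback inhibitors and all 8 further nuclear effectors had a promoter peak in both. Of the 16 ligands, 9 had a peak in both libraries (56.2%, against 63.6% of all protein-coding genes) and 7 had none in either, among them Fgf16, Fgf17 and Fgf21. Ligands that had a peak included Fgf1, at percentile 80.1 in replicate 1 and 82.4 in replicate 2, Fgf18, at 83.0 and 75.9, and Fgf20, at 87.5 and 74.5.

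**Figure D5:**
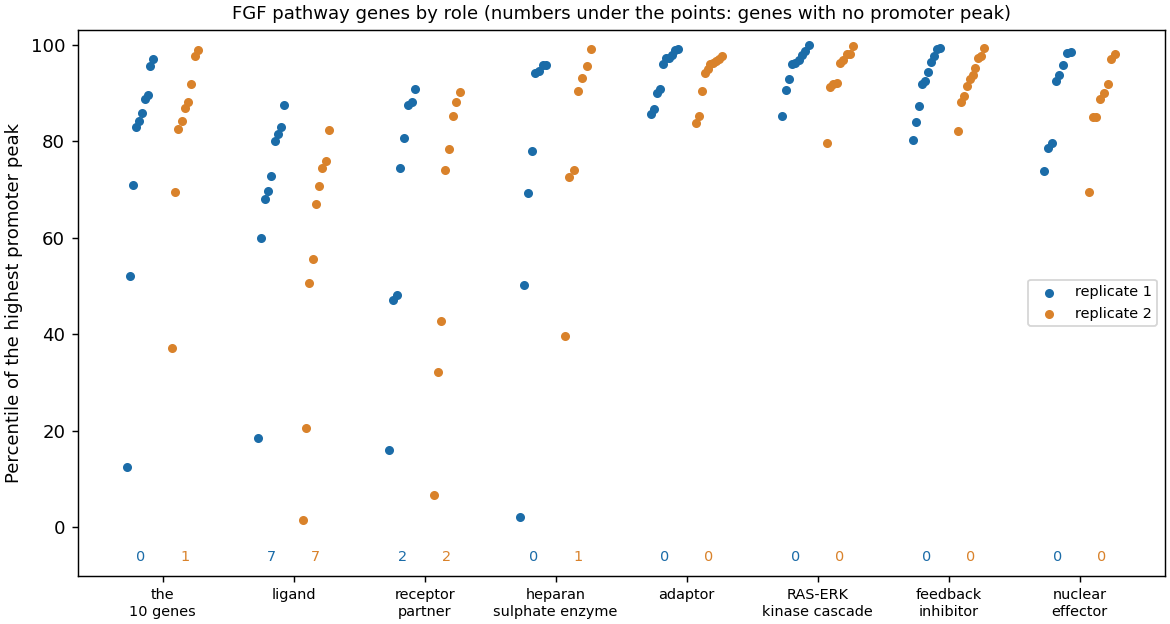
Percentile of the highest promoter peak in each library for the 10 genes and the 71 further pathway genes by role, sorted within a role; the numbers beneath give the genes with no promoter peak. Of 16 ligands 7 had none in either library, while adaptors and kinases of the RAS-ERK cascade had medians above 95.

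Ranks of the peaks also differed by role. The median percentile was 96.6 in replicate 1 and 95.5 in replicate 2 for adaptors, 96.2 and 96.1 for the cascade, 93.4 and 93.4 for feedback inhibitors and 93.1 and 89.4 for nuclear effectors. It was 72.7 and 67.0 for the ligands with a peak, 77.6 and 76.2 for receptor partners and 86.1 and 90.3 for heparan sulphate enzymes, against 89.9 and 89.7 over all protein-coding genes with a peak. Map2k1, a kinase that activates ERK, reached 99.97 in replicate 1 and 99.8 in replicate 2, and Grb2, the adaptor that brings SOS to the receptor, 98.9 and 97.7. Cbl, a ubiquitin ligase that marks receptors for breakdown, had 99.4 in both libraries, Spry1, a relative of Spry2, had 97.7 and 97.2, and Dusp5, a nuclear ERK phosphatase, had 99.2 and 97.7.

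Of the nuclear effectors, Ets1 had 98.4 and 98.0 and the immediate early gene Egr1 98.5 and 97.0. Of 10 receptor partners 8 had a peak in both libraries, led by the proteoglycan Sdc4 at 90.9 and 90.2, and Flrt1 and the co-receptor Klb had none. Of 8 enzymes of heparan sulphate, 7 had a peak in both libraries and Hs6st2 had one in replicate 1 alone, at percentile 2.17. The synthesis genes Ext1, at 95.9 in replicate 1 and 95.6 in replicate 2, and Hs2st1, at 95.8 and 99.1, ranked highest in that role. Among the 10 genes the ligands likewise ranked lowest, with Fgf7 the lowest of those with a promoter peak in both libraries and Fgf10 without one in replicate 2.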

How the data were processed

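Per the labels, the reads were aligned to mm10 and each library was called by itself; for aligner, callers and cut-offs, the names are not given in the sources here. In the deposited peak files column 7 is a signal value, called the score, whose scaling the authors do not state. Of the 2 peak files of a library, the smaller was used. The deposited false discovery rate files list runs of bases with a rate (a q-value) of at most 0.05, and the deposited footprint files carry only the constant 0.01.

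From these, percentiles, distances and overlaps (1 bp or more) were computed with Python 3.11.15, pandas 2.3.3 and numpy 2.4.6 (figures: matplotlib 3.10.9), using GENCODE M21 and GRCm38. For Fgfr2, 1 read-through transcript was left out. A site merges overlapping peaks of the libraries. Counting was checked on simulated data. The 10 genes, the pathway and marker lists and the consensus words were chosen with earlier results of these data known, and the CCAAT word and the printed sequences after the values here were seen. Of 72 listed pathway genes, 71 matched by symbol. The named genes were, per role, among the 3 highest and up to 3 without a peak (not all are reported here); the named sites were, per gene, the 2 highest and that with most footprints, and further sites were chosen after their values were seen. Other windows, flanks, peak files and overlaps were tried.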

Additional observations from a re-analysis of the deposited data

How the results depend on the processing

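No paired analysis was possible because there was 1 group and no contrast. The number of genes among the 10 with a promoter peak in both libraries was 9. It stayed 9 within 500 or 2500 bp of 5′ ends, was 10 with the larger peak files (Fgf10 gained) and was 8 with outermost 5′ ends alone (Fgfr1 lost) or with the higher-scoring 50% of peaks (Fgf7 lost). Of the pathway genes, 55 to 62 had one in both. The total and the median per gene of shared sites away from promoters, 78 and 8.5, followed the area searched by construction. They were 43 and 4.5 with 20 kb flanks, 126 and 13.5 with 100 kb flanks, 19 and 1 in gene bodies alone, and 46 and 4 with the higher-scoring 50% of peaks. With the read-through model of Fgfr2 the total was 212. The share of peaks of the 10 genes with a footprint, a mean of 89.6% over the libraries, was 79.8% with the larger files. With either library left out, the promoter count was 9 to 10, the total of sites 91 to 101 and their median 10 to 11, counting the peaks of the remaining library, and the footprint share 88.1% to 91.1%. Of 35 percentiles of single genes recomputed with other windows, ends or peak files, 26 moved by no more than the spread between libraries and 9 by more; 7 of these 9 came from the larger files, and 2 were at Fgfr4, at 56.5 with its outermost end or with 500 bp. A setting that keeps the same highest peak leaves its percentile unchanged by construction. The larger files hold more weak peaks, which raises percentiles, so these counts do not show how stable the ranks are. Unknown read depth limits any statement that a site was absent.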

Other observations

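Of the 94 sites shared by both libraries near the 10 genes, 9 stood above percentile 90 in both. The starts of neighbouring genes made up 6 of them: Letm2 (2 sites) and Nsd3 near Fgfr1, Letm1 near Fgfr3, Zfp346 near Fgfr4 and Dhx8 near Etv4. The promoters of Etv5 and Dusp6 made up 2, and the site between Fgfr4 and Nsd1 was the other one. Dhx8, an RNA helicase of splicing, ranked 98.9 in replicate 1 and 97.4 in replicate 2, and Zfp346 ranked 98.2 and 97.6. Letm1, a mitochondrial membrane protein, ranked 93.3 and 93.9.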
